A study of Mus musculus with 6 samples.

Results

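The TNF receptor superfamily is a family of cell surface receptors, several of which costimulate T cells. To measure how its members expressed in T cells differed after induced loss of Zfp335, 10 receptor genes were examined in the bulk RNA-seq of Tregs from WT and KO mice. The genes were taken by symbol: Tnfrsf1a, Tnfrsf1b, Tnfrsf4, Tnfrsf9, Tnfrsf13b, Tnfrsf14, Tnfrsf18, Tnfrsf25, Tnfrsf26 and Cd27. All 10 were among the 32285 rows of the count table and all 10 passed the filter on low counts, which kept 17307 genes. Members had between 3630 and 79736 counts in each library.

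Splenic CD4+CD25+ cells were sorted as Tregs from C57BL/6 mice, with 3 libraries per group. KO mice were ERCre Zfp335fl/fl, in which Cre fused to a modified estrogen receptor deletes the floxed gene once tamoxifen is given. WT mice are wild-type littermates in the sample labels and tamoxifen-treated ERCre mice in the study's text, and the labels do not mention tamoxifen. By the study's methods, mice were 6 weeks old at treatment, received 3 injections of tamoxifen at 10 mg/mL in corn oil and were killed on day 7. ERCre is not restricted to Tregs, so other cells of these mice could also lose Zfp335. Nothing states whether a library was made from 1 mouse or from pooled mice, so p values measure the spread between these libraries.

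Receptors of this family bind trimeric ligands of the TNF superfamily. Most members discussed here lack a death domain and recruit TRAF adaptor proteins, through which they activate NF-κB, whereas Tnfrsf1a (TNFR1) and Tnfrsf25 (DR3) carry a death domain. GITR (Tnfrsf18), OX40 (Tnfrsf4), 4-1BB (Tnfrsf9) and TNFR2 (Tnfrsf1b) are known for their high expression on Tregs and for their costimulatory role in these cells.

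Library totals ranged from 133283969 to 209041812 counts. Zfp335 RNA was 124.4, 120.7 and 115.2 CPM (a gene's counts on a scale common to all libraries, after TMM scaling of their sizes) in WT replicates 1 to 3 and 15.0, 14.3 and 15.1 CPM in KO replicates, a log2 fold change of -3.02 (SE 0.046, edgeR adjusted p = 1.2e-13), as labeled. Foxp3, the lineage factor of Tregs, was 1120 to 1154 CPM in WT and 1046 to 1062 CPM in KO (log2 fold change -0.11, adjusted p = 0.0163). Xist, which is transcribed from the inactive X chromosome, was 0.187 to 0.424 CPM in WT libraries and 123.9 to 144.7 CPM in KO libraries, so sex and genotype cannot be told apart in these data. All 8 B cell markers were lower in KO, with a summed level of 58.7 to 63.4 CPM in WT and 25.5 to 27.2 CPM in KO. The 4 erythroid markers were lower as well (26.4 to 30.9 CPM summed in WT against 1.31 to 1.59 CPM in KO), as were 6 of 8 myeloid, 3 of 6 dendritic cell, 2 of 4 NK cell and 2 of 4 plasma cell markers. Neither of the 2 CD8 T cell markers passed the test. Of all tested genes, 12.1% were called lower. The part of other cells in the receptor results was not tested.

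Of the members, 6 lie on chromosome 4, and Tnfrsf4 and Tnfrsf18 start 12.3 kb apart. On the plus strand of GRCm38, GENCODE places Tnfrsf4 at chr4:156013843-156016612, Tnfrsf18 at chr4:156026164-156028895 and Tnfrsf9 at chr4:150914562-150946102. These 3 genes passed the test as higher in KO, and sequence next to their RefSeq starts (GRCm38.p6, plus strand, 5′ to 3′) is printed here because NF-κB, AP-1 and NFAT sites are the usual elements sought in such promoters. The first line is chr4:156013611-156013694, the 84 bases that end at the last base before the Tnfrsf4 start and hold no annotated exon. The next is chr4:156026072-156026163, 92 exon-free bases from 250 to 159 bases before the RefSeq start of Tnfrsf18. The last pair are sites in front of the second RefSeq start of Tnfrsf9, at chr4:150927951-150927971 and chr4:150927979-150927995, with the motif in capitals.
Tnfrsf4 upstream: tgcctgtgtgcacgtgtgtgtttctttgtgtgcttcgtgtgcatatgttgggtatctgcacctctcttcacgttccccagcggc
Tnfrsf18 upstream: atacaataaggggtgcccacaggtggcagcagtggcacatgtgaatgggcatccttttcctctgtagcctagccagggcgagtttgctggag
Tnfrsf9 NF-κB motif: cagctGGGGATTTCCCaggag
Tnfrsf9 AP-1 motif: tcagtTGAGTCAcaggt
The NF-κB match begins 43 bases and the AP-1 match 15 bases before that Tnfrsf9 start. Both lie in the part of that window that holds an annotated Tnfrsf9 exon.

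Of the 10 members, 9 had a promoter window in the RefSeq table, with 11 windows in all. In the 250 bases before each start, both strands were searched for the NF-κB consensus, for the AP-1 motif TGANTCA and for the NFAT core TGGAAA. The NF-κB consensus was found in 2 of the 11 windows (Tnfrsf9 and Tnfrsf25), against 7.25% of 32851 windows of all genes. The AP-1 motif was found in 1 window (Tnfrsf9), against 6.75% of all windows. The NFAT core was found in 2 windows (Tnfrsf9 and Tnfrsf4), against 18.6% of all windows. The Tnfrsf4 match, at chr4:156013475-156013480, lies within the neighboring gene Sdf4, which ends at 156013610. These are matches of letters, and the libraries do not measure binding.

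Among the receptors, 3 rose in KO Tregs, Tnfrsf4, Tnfrsf9 and Tnfrsf18, and 2 fell, Tnfrsf13b and Tnfrsf14. The other 5 did not pass the test. The 5 called members stand beside 24.1% of all tested genes called in either direction, 12% higher and 12.1% lower. Of all called genes 49.9% were higher, and 38.6% when libraries were scaled by size only. None of the members reached the study's bulk RNA-seq cutoffs (at least 1.5-fold, p under 0.05, adjusted p under 0.1), which 6.95% of tested genes did. The study describes these cutoffs for DESeq2 p values of Tregs from Foxp3Cre mice. Here they were applied to edgeR p values of the ERCre libraries. WT and KO libraries did not overlap for 6 of the 10 members, 3 higher and 3 lower in KO, whereas 38.3% of tested genes did not overlap (19.3% higher and 19.1% lower). An absolute log2 fold change of at least 0.3 was seen in 1 of the 10 members (Tnfrsf4) and in 29.7% of tested genes. The median log2 fold change of the members was 0.042, against -0.0042 over all tested genes. Fewer cells that express a gene and less RNA per cell cannot be told apart in these bulk libraries.

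**Figure D1:**
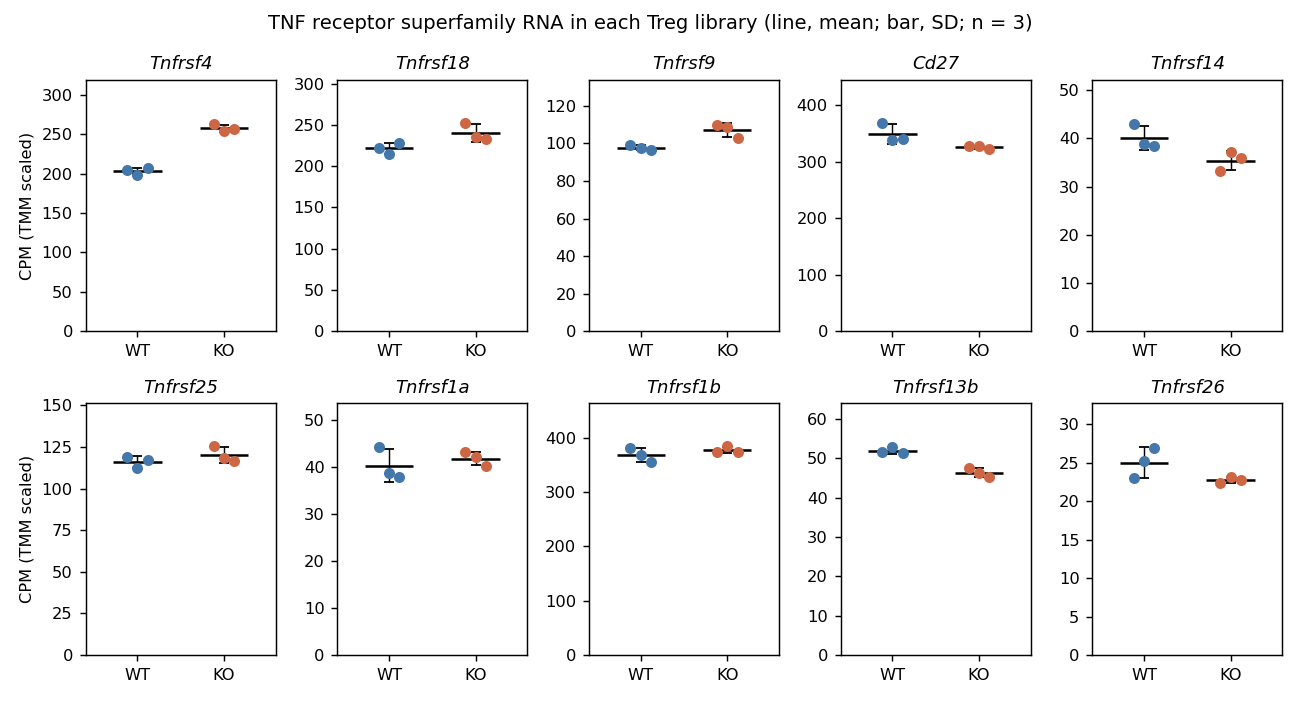
RNA of the 10 receptor genes in each library, in CPM on linear axes that start at 0 (points, libraries; line, mean; bar, SD; n = 3 per group). Tnfrsf4 shows the widest separation, with WT libraries at 198.8 to 206.7 CPM and KO libraries at 254.1 to 262.8 CPM.

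Tnfrsf4 encodes OX40, a costimulatory receptor that T cells raise on activation and that Tregs carry constitutively in mice. Its RNA was 205.1, 198.8 and 206.7 CPM in WT replicates 1 to 3 and 262.8, 254.1 and 256.2 CPM in KO replicates 1 to 3. All KO libraries were above all WT libraries, and the gap between groups was wider than the range within either. The mean rose from 203.5 ± 4.22 to 257.7 ± 4.53 CPM (SD, n = 3), a gain of 26.6%. On the log2 scale the change was 0.34 (SE 0.032, 95% CI 0.27 to 0.41, edgeR adjusted p = 5.74e-06). It was the largest absolute change among the 10 members and stayed between 0.31 and 0.35 in 16 alternative fits, each of which called it at an adjusted p under 0.05, but it did not reach the study's 1.5-fold cutoff. The exact permutation test over libraries gave p = 0.1, the smallest value that 3 against 3 allows.

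Tnfrsf18 encodes GITR, the receptor next to Tnfrsf4 on chromosome 4. It was measured at 222.1, 214.6 and 228.2 CPM in WT and at 252.1, 235.4 and 233.1 CPM in KO. The groups did not overlap, but the lowest KO library was only slightly above the highest WT library. The log2 fold change was 0.12 (SE 0.039, 95% CI 0.033 to 0.20), an increase of 8.40%, at an edgeR adjusted p of 0.0434. The call was lost in 6 of 16 alternatives, with adjusted p up to 0.212. These were upper-quartile scaling, scaling by library size only and leaving out WT replicate 2 or any of the 3 KO libraries. Leaving out any of these libraries also lowered the number of all tested genes called. It was then 1341 to 1503 higher and 1399 to 1483 lower, against 2082 and 2088 with all libraries. Gm16008, an antisense gene that shares 18.7% of the 50-base stretches of Tnfrsf18 transcripts, was at 3.13 to 6.22 CPM and rose as well (log2 fold change 0.61, adjusted p = 0.00918). Whether counting used strand is not given in the sources used here, so reads of the overlap cannot be assigned with certainty.

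Tnfrsf9 encodes 4-1BB (CD137), an activation-induced costimulatory receptor. Its levels were 99.3, 97.4 and 96.6 CPM in WT and 109.5, 108.9 and 102.8 CPM in KO. Each KO library was above each WT library, and the WT libraries were the closer to each other. The change was 0.13 on the log2 scale (SE 0.037, 95% CI 0.052 to 0.21, adjusted p = 0.0197), or 9.49%. It was called in 12 of 16 alternatives and lost with scaling by library size only and without WT replicate 2, KO replicate 1 or KO replicate 2.

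Tnfrsf4 also rose relative to its neighbor. The ratio of Tnfrsf4 to Tnfrsf18 counts, which does not depend on scaling between libraries, was 0.924, 0.926 and 0.906 in WT and 1.04, 1.08 and 1.10 in KO. The groups did not overlap, and the log2 ratio differed by 0.22 (exact permutation p = 0.1, the smallest possible). Ratios of this kind were chosen after the data were seen. Within 200 kb of the starts of the 10 members, 84 annotated genes were tested, and 13 were higher and 13 lower in KO, which is 31% against 24.1% of all tested genes. Sdf4, whose last exon reaches into the window before the Tnfrsf4 start, had a log2 fold change of 0.11 (adjusted p = 0.0170).

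Cd27, the receptor for CD70, was 368.8, 338.3 and 339.9 CPM in WT and 327.7, 327.3 and 322.7 CPM in KO. WT replicate 1 was the highest, and the lowest WT library was above the highest KO library. The log2 fold change of -0.099 (SE 0.037, 95% CI -0.18 to -0.018) did not pass the test (adjusted p = 0.0736), although 3 of 16 alternatives did call it, namely scaling by library size only, DESeq2 and leaving out WT replicate 3. Vamp1, which overlaps Cd27 on the opposite strand, rose (log2 fold change 0.20, adjusted p = 0.0200, 59.8 to 77.4 CPM).

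Tnfrsf14 encodes HVEM, which binds LIGHT and also BTLA. It was 43.0, 38.9 and 38.4 CPM in WT and 33.2, 37.1 and 35.9 CPM in KO. KO libraries were all lower than WT libraries, and WT replicate 1 and KO replicate 1 lay farthest from the other group. The log2 fold change was -0.18 (SE 0.056, 95% CI -0.30 to -0.060, adjusted p = 0.0312), which is -11.8%. The call was lost without WT replicate 1, WT replicate 2, KO replicate 1 or KO replicate 3, with an adjusted p up to 0.151.

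Tnfrsf25 encodes DR3, the receptor for TL1A. It was 119.2, 112.1 and 117.2 CPM in WT and 125.3, 118.3 and 116.7 CPM in KO. The groups overlapped, and the log2 fold change was 0.048 (95% CI -0.036 to 0.13, adjusted p = 0.426).

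The 2 receptors for TNF itself also overlapped between groups. Tnfrsf1b, which encodes TNFR2, was 380.7, 367.6 and 355.0 CPM in WT and 373.6, 384.5 and 373.9 CPM in KO. Its log2 fold change was 0.037 (95% CI -0.037 to 0.11, adjusted p = 0.495). Tnfrsf1a, which encodes TNFR1, was 44.2, 38.6 and 37.9 CPM in WT and 43.1, 42.0 and 40.1 CPM in KO. WT replicate 1 was the highest of all 6 libraries, and the log2 fold change was 0.051 (95% CI -0.073 to 0.17, adjusted p = 0.581). The ratio of Tnfrsf1b to Tnfrsf1a counts was 8.62 to 9.52 in WT and 8.68 to 9.32 in KO (difference of log2 ratios -0.019, exact permutation p = 0.7). None of the 16 alternatives called Tnfrsf1a, Tnfrsf1b or Tnfrsf25.

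Tnfrsf13b encodes TACI, a receptor for BAFF and APRIL that is best known from B cells. It was 51.5, 52.9 and 51.4 CPM in WT and 47.5, 46.2 and 45.3 CPM in KO. All KO libraries were lower than all WT libraries, and each group spanned a narrow range. The log2 fold change was -0.17 (SE 0.039, 95% CI -0.25 to -0.081, adjusted p = 0.00772), or -10.8%. It was called in 15 of 16 alternatives, the exception being the fit without WT replicate 2 (adjusted p = 0.0505). The mean difference was -5.61 CPM. Over the same libraries the median log2 fold change of the 8 B cell markers was -1.64. The part of B cell RNA in the difference of Tnfrsf13b was not tested.

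Tnfrsf26, which lies in a cluster with Tnfrsf22 and Tnfrsf23 on chromosome 7, was 23.0, 25.2 and 27.0 CPM in WT and 22.4, 23.2 and 22.8 CPM in KO. KO replicate 2 was above WT replicate 1, so the groups overlapped. The log2 fold change of -0.13 (95% CI -0.26 to -0.0025) did not pass the test (adjusted p = 0.136), and it was called only without WT replicate 1. Of its cluster neighbors, Tnfrsf22 fell from 26.9 to 20.5 CPM (log2 fold change -0.40, SE 0.051, adjusted p = 9.29e-05) and Tnfrsf23 went from 3.01 to 2.29 CPM (-0.39, adjusted p = 0.0720). Tnfrsf22 shares 27.4% and Tnfrsf23 19.3% of its 50-base stretches with other genes, so counts could be split between the pair.

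**Figure D2:**
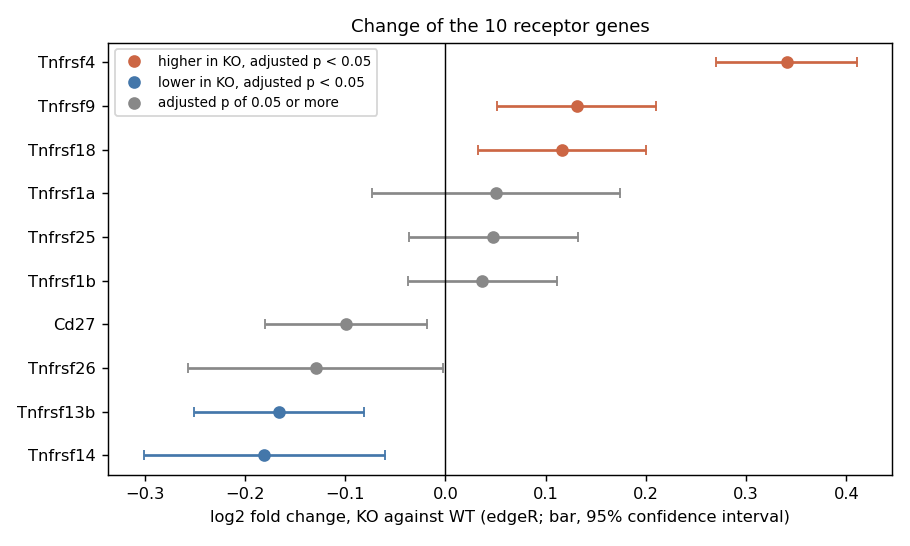
Log2 fold change of each member in KO against WT from edgeR (points) with 95% confidence intervals (bars). Tnfrsf4 at 0.34 stands to the right of all others, and the intervals of Tnfrsf1a, Tnfrsf1b and Tnfrsf25 include 0.

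Because counts grow with transcript length, levels were compared between genes as CPM per kb of merged exons. In WT Tregs, Cd27 was highest at 223.9 ± 11.0 CPM per kb (SD, n = 3), ahead of Tnfrsf4 at 197.6 and Tnfrsf18 at 175.9. Tnfrsf1b at 96.3 and Tnfrsf25 at 61.0 followed. Lower levels were seen for Tnfrsf9 (39.3), Tnfrsf14 (30.9), Tnfrsf13b (20.3), Tnfrsf1a (18.7) and Tnfrsf26 (7.78), also in CPM per kb. Adjacent genes in this order had separate ranges in WT except Tnfrsf13b and Tnfrsf1a, which overlapped. In KO Tregs, Tnfrsf4 was first at 250.2 ± 4.40 CPM per kb and Cd27 second at 209.0 ± 1.77. Tnfrsf18 followed at 190.6 ± 8.23, and its highest library (200.1) was below the lowest Cd27 library (207.0). Tnfrsf1a (19.4) stood above Tnfrsf13b (18.1) in KO, with no overlap. The order of genes is that of mean levels, and both the order and the gaps between ranges depend on the annotated lengths. By the longest transcript in place of merged exons, the KO mean of Tnfrsf18 was 202.0 CPM per kb, against 209.0 for Cd27. The change in the ratio of Tnfrsf4 to Cd27 counts does not depend on these lengths. That ratio is taken within each library. It was 0.556, 0.588 and 0.608 in WT and 0.802, 0.776 and 0.794 in KO, a log2 difference of 0.44 (exact permutation p = 0.1).

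**Figure D3:**
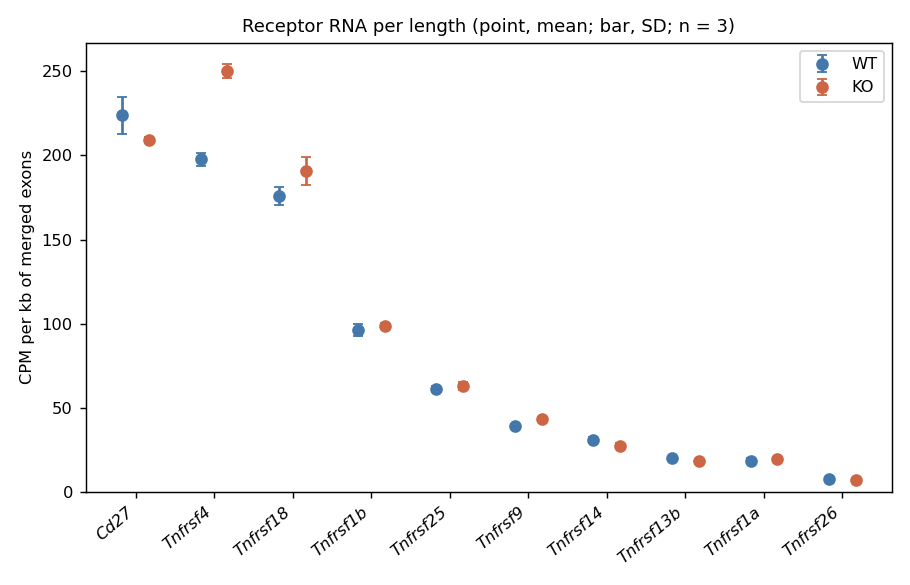
Level of each receptor RNA in CPM per kb of merged exons in WT and KO Tregs (points, mean; bars, SD; n = 3), ordered by the WT level. Cd27 at 223.9 leads in WT and Tnfrsf4 at 250.2 leads in KO, and 7 other genes lie below 100 CPM per kb in WT.

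The summed CPM of the 10 members was 1557, 1484 and 1498 in WT and 1597, 1577 and 1550 in KO, and these ranges overlapped. Tnfrsf4 contributed 13.2, 13.4 and 13.8% of this sum in WT and 16.4, 16.1 and 16.5% in KO. Cd27 contributed 23.7, 22.8 and 22.7% in WT and 20.5, 20.7 and 20.8% in KO.

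Since Foxp3 RNA was lower in KO, each member was also set against Foxp3 and against Cd4 in the same library, a scaling chosen after the data were seen. Tnfrsf4 per Foxp3 was 0.178, 0.178 and 0.182 in WT and 0.247, 0.243 and 0.245 in KO, a log2 difference of 0.45. Relative to Cd4, which had a log2 fold change of 0.032 (adjusted p = 0.507), the log2 difference of Tnfrsf4 was 0.31, and groups did not overlap with either reference. The log2 differences of Tnfrsf9 and Tnfrsf18 were 0.24 and 0.23 per Foxp3 without overlap, but 0.099 and 0.084 per Cd4 with overlapping groups (exact permutation p = 0.2 for both). In the other direction, Tnfrsf13b and Tnfrsf14 differed by -0.20 and -0.21 per Cd4 without overlap, and by -0.054 and -0.069 per Foxp3 with overlap (exact permutation p = 0.2 and 0.5). Cd27 was -0.13 per Cd4 without overlap and 0.014 per Foxp3 with overlap (exact permutation p = 0.1 and 0.8). Tnfrsf26 was -0.16 per Cd4 and -0.021 per Foxp3, with overlap for both (exact permutation p = 0.2 and 0.8). Tnfrsf1a, Tnfrsf1b and Tnfrsf25, whose CPM overlapped between groups, did not overlap per Foxp3, with log2 differences of 0.17, 0.15 and 0.16. They overlapped per Cd4, and their own log2 fold changes were 0.051, 0.037 and 0.048. Foxp3 itself was lower in KO (-0.11), which raises the KO ratio of any gene to it. The share of all tested genes without overlap per Foxp3 or per Cd4 was not computed. Of the members, Tnfrsf4 was the one whose groups were apart and on the same side under CPM, Foxp3 and Cd4 while also called in all 16 alternative fits.

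Other genes of the family moved in both directions. Of 18 further receptor genes listed, 14 were tested, 3 rose, 4 fell and 7 did not pass the test, with a median log2 fold change of -0.17. Over all tested genes, 12% were called higher and 12.1% lower. Tnfrsf10b, the mouse TRAIL death receptor, rose from 9.58 to 15.2 CPM (log2 fold change 0.66, SE 0.063, adjusted p = 5.36e-06). Tnfrsf12a, the TWEAK receptor, rose from 12.3 to 16.7 CPM (0.44, SE 0.057, adjusted p = 9.3e-05). Tnfrsf8 encodes CD30 and lies 68.3 kb from Tnfrsf1b, between their starts. It was 16.1, 15.3 and 15.5 CPM in WT and 19.3, 19.3 and 21.8 CPM in KO (0.37, SE 0.062, adjusted p = 0.000781).

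Among the further receptors that passed the test, the largest decreases were in Tnfrsf13c and Cd40, both known from B cells. Tnfrsf13c, the BAFF receptor, fell from 3.79 to 1.68 CPM (log2 fold change -1.17, SE 0.13, adjusted p = 1.7e-05) and Cd40 fell from 1.27 to 0.742 CPM (-0.76, SE 0.20, adjusted p = 0.0145). The Cd40 call was lost without KO replicate 1 or KO replicate 2, with an adjusted p of up to 0.0602. Both moved with the B cell markers given above, whose part in them was not tested. The other receptor that fell besides Tnfrsf22 was Relt (-0.20, adjusted p = 0.00556), named after its values were seen. Fas, the receptor for FasL, did not pass the test (0.062, adjusted p = 0.390).

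Among 17 ligand genes of the TNF superfamily, 16 were tested, 4 rose, 1 fell and 11 did not pass the test. Their median log2 fold change was -0.0049. By comparison, 12% of all tested genes were called higher and 12.1% lower. Tnfsf4, which encodes the ligand of OX40, was 0.896, 0.840 and 0.765 CPM in WT and 3.23, 2.14 and 2.41 CPM in KO. The groups were well apart at this low level, with a log2 fold change of 1.61 (SE 0.20, adjusted p = 5.57e-05), and all 16 alternative fits called it. Dendritic cells and B cells can also express this ligand. Of 6 dendritic cell markers 3 fell and 3 did not pass the test, with a summed level of 9.03 to 10.1 CPM in WT and 5.94 to 6.51 CPM in KO, and the part of these cells in the Tnfsf4 result was not tested.

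Tnfsf8, the ligand of CD30, rose from 40.5 to 70.0 CPM (log2 fold change 0.79, SE 0.042, adjusted p = 2.85e-08). Fasl, a death ligand, rose from 3.94 to 6.71 CPM (0.78, SE 0.087, adjusted p = 2.63e-05). Tnfsf11, which encodes RANKL, rose from 28.3 to 35.5 CPM (0.32, SE 0.049, adjusted p = 0.000311). The ligand that fell was Tnfsf10, which encodes TRAIL (-0.22, adjusted p = 0.00592), named after its values were seen.

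The other ligands that pair with members did not pass the test. For the TNF receptors these were Tnf (log2 fold change -0.11, adjusted p = 0.128) and Lta (-0.15, adjusted p = 0.106). Tnfsf9, the ligand of 4-1BB, had a log2 fold change of -0.029 (95% CI -0.23 to 0.18, adjusted p = 0.866), and Tnfsf14, the HVEM ligand LIGHT, one of -0.12 (adjusted p = 0.229). The CD27 ligand Cd70, which did reach the study's cutoffs, was at 0.0605 to 0.126 CPM in WT and 0.163 to 0.342 CPM in KO (1.30, 95% CI 0.17 to 2.4, adjusted p = 0.0920). The TACI ligands Tnfsf13b, which encodes BAFF (-0.35, adjusted p = 0.374), and Tnfsf13, which encodes APRIL (-0.031, adjusted p = 0.967, named outside the naming rule), and the DR3 ligand Tnfsf15 (0.078, adjusted p = 0.927) were also near or below 1 CPM. Tnfsf18, the GITR ligand, had 0 counts in all 6 libraries, which allows up to 3 counts or 0.0144 to 0.0225 CPM per library, for counting error only.

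Receptor adaptors and proximal signaling genes made up a list of 20, of which 6 rose, 2 fell and 12 did not pass the test. Their median log2 fold change was 0.038. For all tested genes, the shares were 12% called higher and 12.1% lower. Tnfaip3, which encodes the NF-κB inhibitor A20 and is itself induced by NF-κB, rose from 2096 to 3714 CPM (log2 fold change 0.82, SE 0.031, adjusted p = 8.41e-10). Traf4 rose from 77.4 to 93.6 CPM (0.27, SE 0.043, adjusted p = 0.000432). Smaller increases were in Birc2 (0.24), Birc3 (0.21), Traf6 (0.23) and Tnip1 (0.11), and the 2 decreases were in Ripk1 (-0.17) and Cyld (-0.14), all on the log2 scale and named after their values were seen. Birc2 and Birc3 encode the ubiquitin ligases cIAP1 and cIAP2, which act with TRAF2, and Cyld encodes a deubiquitinase that restrains NF-κB.

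The TRAF genes most directly tied to the costimulatory members did not pass the test. Traf1 had a log2 fold change of 0.049 (95% CI -0.020 to 0.12, adjusted p = 0.308), Traf2 of -0.017 (95% CI -0.12 to 0.083) and Traf3 of 0.011 (95% CI -0.057 to 0.079). Traf5 was at -0.10 (adjusted p = 0.0633) and was called in 5 of 16 alternatives. Tradd, the adaptor of TNFR1 and DR3, was at -0.12 (adjusted p = 0.0976) and was called in 2 of 16.

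**Figure D4:**
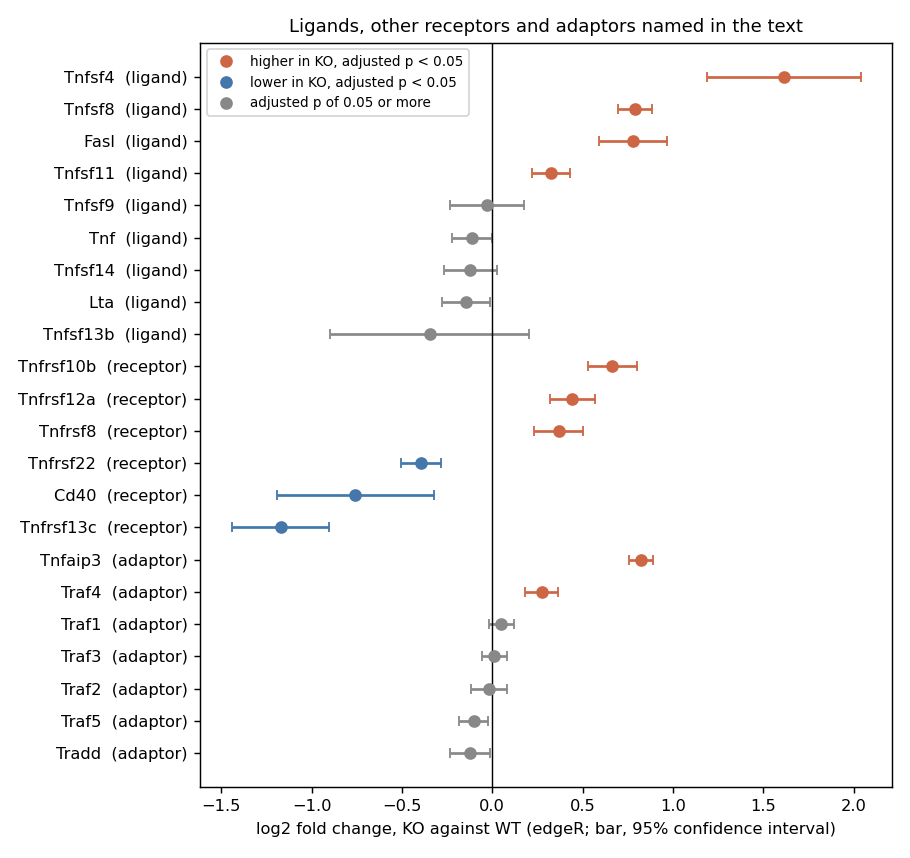
Log2 fold change in KO against WT from edgeR (points) with 95% confidence intervals (bars) for the ligands, further receptors and adaptors chosen by the naming rule, without Cd70 and Tnfsf15, which were below 1 CPM and had wide intervals, and without Tnfsf18, which had 0 counts. Tnfsf4 at 1.61 and Tnfrsf13c at -1.17 mark the ends, and Traf1, Traf2 and Traf3 lie near 0.

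The receptors were also read beside the Treg state markers of the same libraries. Of 6 Treg identity genes, Ctla4 rose (log2 fold change 0.65), Foxp3 and Il2ra fell, and 3 did not pass the test. Of 6 genes of resting Tregs, 5 rose and 1 fell, and their summed level was 2341 to 2451 CPM in WT and 2679 to 2715 CPM in KO. Of 10 genes of effector Tregs, Il10 rose (0.93), 5 fell (Icos, Klrg1, Itgae, Cxcr3 and Gzmb) and 4 did not pass the test. Their summed level was 1044 to 1077 CPM in WT and 942.3 to 954.3 CPM in KO. These counts stand beside 12% of all tested genes called higher and 12.1% called lower. The part of a shift between Treg states in the receptor changes was not tested.

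**Figure D5:**
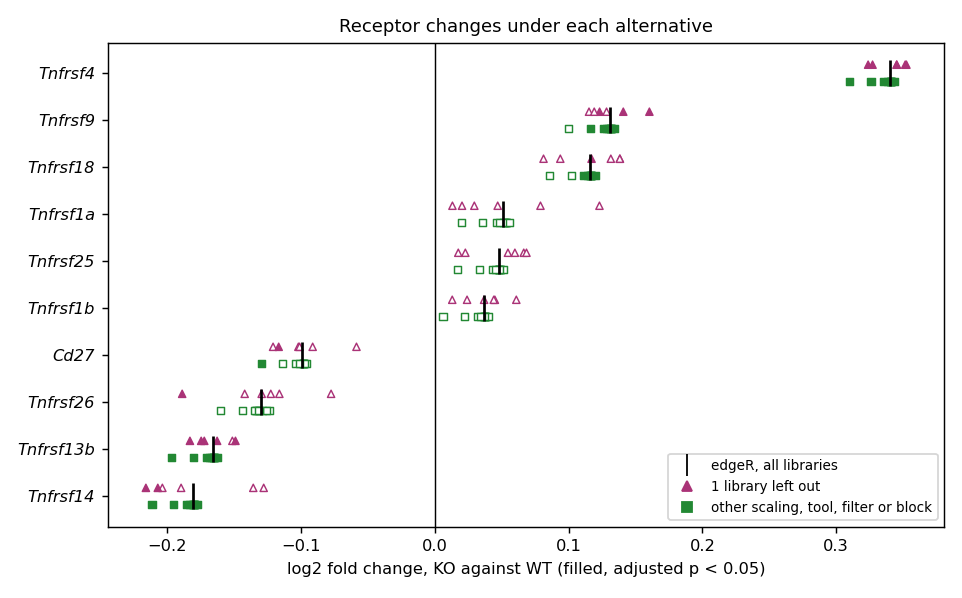
Log2 fold change of each member with all libraries (line), with 1 library left out (triangles) and with other scalings, tools, filters or the replicate block (squares). Filled symbols have an adjusted p under 0.05, and Tnfrsf4 has filled symbols in all 16 alternatives, between 0.31 and 0.35.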

How the data were processed

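RNA of sorted splenic CD4+CD25+ Tregs was sequenced from 3 WT and 3 KO libraries, prepared from total RNA with a TruSeq kit. The deposited table holds 1 row of raw counts per gene symbol, and the authors had not normalized them between libraries. The submitters' processing notes name mm10, HISAT2 and DESeq2. The counting program, its strand setting and its annotation are not given in the sources used here, and the number of independent fragments behind the counts is unknown. All 6 columns matched a sample title. Of rows that share a symbol (40 repeats), the one with the highest total was used under that symbol.

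Counts were analyzed in R 4.3.3 with edgeR 4.0.16 and its quasi-likelihood test (robust, newer method, TMM scaling, filterByExpr), with Benjamini-Hochberg adjustment over 17307 genes. A gene counted as called where its adjusted p was below 0.05. CPM used TMM-scaled library sizes, with factors of 0.987 to 1.014. Single values were compared by 2-sided exact permutation tests, which cannot go below p = 0.1 with 3 against 3. Positions and merged exon lengths came from GENCODE M21 (GRCm38, called mm10 in the notes). Promoter windows came from RefSeq (GRCm38.p6). Motif matches that overlapped were merged.

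The text names all 10 members and, of the ligands, further receptors and adaptors, called genes with at least 1.2-fold change and a mean CPM of at least 1 (at most 8 per list). A fixed set of ligands and adaptors that pair with members, Tnfrsf8, Zfp335 and Foxp3 are named whatever their result. The members and lists were chosen with earlier results of these data known.

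Alternatives were DESeq2 size factors (RLE), upper-quartile factors or library size only, DESeq2 1.42.0, voom of limma 3.58.1, edgeR's legacy method, no filter or a stricter count filter, a block for the replicate number, fits without haemoglobin and immunoglobulin genes, and each library left out, 16 fits in all. The study's cutoffs were applied to the edgeR p values as another call rule. Ratios to Foxp3, to Cd4 and between members were added after the data were seen.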

Additional observations from a re-analysis of the deposited data

How the results depend on the processing

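Of the 16 alternative fits, none turned the direction of a member. With scaling by library size only, 1 member was called higher in place of 3 (Tnfrsf4) and 4 adaptors lower in place of 2 (Cyld, Ripk1, Tradd and Traf5). That setting moved the median of all genes to -0.035 on the log2 scale and called 1622 genes higher and 2575 lower, against 2082 and 2088 with TMM. With the study's cutoffs, which need a 1.5-fold change, 0 members were called higher and 0 lower, 4 ligands higher (Tnfsf4, Tnfsf8, Fasl and Cd70, without Tnfsf11) and 0 lower, 1 further receptor higher (Tnfrsf10b) and 2 lower (Cd40 and Tnfrsf13c), and 1 adaptor higher (Tnfaip3) and 0 lower. Leaving out 1 library at a time gave 1 to 3 members higher and 0 to 3 lower, 4 ligands higher and 1 to 2 lower, 3 further receptors higher and 3 to 5 lower, and 5 to 7 adaptors higher and 1 to 3 lower. Without WT replicate 2, Tnfrsf4 was the only member called in either direction, and over all genes 1341 were higher and 1399 lower. The fits without KO replicate 1, 2 or 3 called 1386 to 1503 of all genes higher and 1414 to 1483 lower. Without WT replicate 1 these numbers were 2495 and 2501, and without WT replicate 3 they were 2059 and 2059. The change of Zfp335 stayed between -3.05 and -3.00 in the fits without 1 library. Signs were compared between fits only for the members, Zfp335 and the genes chosen by the naming rule. Among those that did not pass the test, the sign turned for Tnfsf9 (-0.088 to 0.033 over the fits without 1 library, above 0 without WT replicate 2), Tnfsf15 (-0.23 to 0.42, below 0 without WT replicate 2 and, at -0.015, without KO replicate 3), Traf2 (-0.059 to 0.033, above 0 without WT replicate 1 and, at 0.0003, without KO replicate 3) and Traf3 (-0.0037 with upper-quartile scaling and -0.020 with library size only). The cause was not tested.

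Deviations from the group mean were compared between same-numbered libraries, with correlations of 0.019, -0.030 and -0.0017 over 12025 genes. Same-numbered libraries thus shared no visible deviation. Whether samples were paired by litter or processing cannot be told from these values. With the replicate number as a block, 3 members were higher and 2 lower, 4 ligands higher and 1 lower, 3 further receptors higher and 4 lower, 7 adaptors higher and 2 lower, and Zfp335 was at -3.02. That fit called 2143 of all tested genes higher and 2084 lower. The intervals limit what 3 libraries per group can show. For Tnfrsf1a, for example, changes from -0.073 to 0.17 on the log2 scale remain possible.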
